A study of Mus musculus with 90 samples.

Results

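The genes described here are 10 immediate-early factors of the AP-1 and EGR type in mouse tumour cells: Egr1, Fos, Fosb, Fosl1, Fosl2, Jun, Junb, Jund, Atf3 and Ier2. They were chosen by name, with earlier results of these data known, and each corresponded to 1 of the 53697 Ensembl gene identifiers in the count table. The study's chronic IFNγ signature, derived from the same time courses, includes Egr1 and Junb, so their calls here are not independent of it. By the study's methods, the signature held genes higher after 3 weeks of IFNγ than at baseline. Genes that responded to fresh IFNγ, or that rose in cultures without IFNγ, were to be removed. The calls of Junb and Egr1 at 2 h below are of a kind that this rule was meant to remove, and they do not repeat the signature. Levels are given as CPM, the count of a gene per 1000000 counts of its library. YUMM2.1, a mouse melanoma line, and CT26, a mouse colon carcinoma line, were each measured in 15 groups of 3 replicates, 90 libraries in all. Cells were kept in 50 IU/mL IFNγ for 1, 2 or 3 weeks and collected before fresh IFNγ was added (0 h) or 2 h or 24 h after it. Naive cells, which had not met IFNγ before (week 0), were collected 2 h and 24 h after their first IFNγ. Control cultures received bovine serum albumin (BSA, 0 IU/mL IFNγ) for 1, 2 or 3 weeks. The week 0 control (0 IU/mL IFNγ), which the study describes as not treated, served as the 0 h group of naive cells. All groups were grown in RPMI-1640 with serum and antibiotics and replated before harvest. No group received fresh medium without IFNγ for 2 h, so handling of the cultures and IFNγ cannot be told apart in any comparison of 2 h with 0 h.

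AP-1 is a dimer of basic leucine zipper proteins. FOS family members (Fos, Fosb, Fosl1, Fosl2) pair with JUN family members (Jun, Junb, Jund) and bind short palindromic DNA sites, while Atf3 is a related zipper protein that often represses. Egr1 is a zinc finger factor that binds GC-rich sites, and Ier2 is a short nuclear protein encoded by an immediate-early gene. Most of these genes are switched on within minutes of growth factor, stress or cytokine signals, without new protein synthesis, and their transcripts decay quickly. IFNγ itself signals mainly through JAK kinases, and its early targets include Irf1.

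The genes lie on 8 mouse chromosomes (GRCm38, GENCODE M21 annotation). Junb (ENSMUSG00000052837.6) spans chr8:84974484-84978718 on the minus strand, and Fos (ENSMUSG00000021250.13) spans chr12:85473890-85477273 on the plus strand. The promoter windows of Junb, the member with the clearest difference at 2 h, and of Fos, the founding member of its family, are shown as examples. Fos was too low in counts to be tested. Each window is RefSeq sequence of GRCm38.p6, from 250 bases before to 50 bases after the start annotated in RefSeq, and capitals mark the motif TATAAA. The Junb window is chr8:84978699-84978998 on the minus strand, and the Fos window is chr12:85473640-85473939 on the plus strand.
Junb: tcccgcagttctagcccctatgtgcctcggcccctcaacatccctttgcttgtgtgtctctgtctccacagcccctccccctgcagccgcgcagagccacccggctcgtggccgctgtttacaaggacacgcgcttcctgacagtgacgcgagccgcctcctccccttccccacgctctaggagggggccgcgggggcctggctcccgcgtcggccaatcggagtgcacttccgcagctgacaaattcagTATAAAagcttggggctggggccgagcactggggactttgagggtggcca
Fos: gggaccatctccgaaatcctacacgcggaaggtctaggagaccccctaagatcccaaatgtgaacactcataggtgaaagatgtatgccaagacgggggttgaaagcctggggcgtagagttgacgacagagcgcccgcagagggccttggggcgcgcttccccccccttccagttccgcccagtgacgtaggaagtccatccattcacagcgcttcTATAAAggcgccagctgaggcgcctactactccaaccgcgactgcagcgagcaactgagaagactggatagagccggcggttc
Positions are counted from the RefSeq start. TATAAA began 33 bases before the start site of Fos and on the first base of the RefSeq start of Junb. The GENCODE start of Junb (84978718, minus strand) lies downstream of that base, so TATAAA lies before the GENCODE start. Of 32817 promoter windows, 13.6% held the motif on either strand. Windows were available for 7 members. The EGR motif GCGNGGGCG was matched in the windows of Fosl2 and Fosb, beginning 79 and 50 bases before the RefSeq start, against 5.56% of all windows. The Fosl2 window (32136222 to 32136521) lies inside the GENCODE gene, which starts at 32135801 on the plus strand. The Atf3 window also lies inside its GENCODE gene, and the Jund window ends (70697788) before the GENCODE start (70698949, plus strand). For these 3 members the windows do not cover the GENCODE start. The AP-1 motif TGANTCA (7.81% of all windows), the cyclic AMP response element TGACGTCA (1.79%), the STAT motif TTCNNNGAA (8.29%) and the CArG box (1.63%) had no match in these 7 windows on either strand. These matches are letters in short windows and were not read as binding sites.

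Total counts per library were low for RNA sequencing, with a range of 274719 to 3161276 for YUMM2.1 libraries and of 295157 to 2205285 for CT26 libraries, and 3 of the 90 held less than 25% of the median of their line. They were replicate 3 of the 3 week 0 h group in YUMM2.1 and replicate 3 of the 1 week and 3 week 0 h groups in CT26. The epithelial markers Krt18 and Krt20 were detected in all 45 CT26 libraries, while Epcam, Cdh1, Krt19 and Cldn7 had 0 counts there. Sox10, a melanocyte-lineage factor, was detected in all 45 YUMM2.1 libraries, and had 0 counts in CT26. Of the other 6 melanocyte markers, Tyrp1 had 0 counts and Mlana had 1 count in YUMM2.1, and Mitf (144 counts, against 147 in CT26), Dct (56 against 127) and Tyr (15 against 21) were no higher there than in the colon carcinoma line. The summed leukocyte markers (4 genes) lay between 1.96 and 21.9 CPM in the melanoma line and between 1.27 and 16.2 CPM in CT26, with Cd3e at 0 in both lines. The methods describe in vitro replicates in general as independent, and the labels do not state whether these 3 were separate cultures. If they were not, p-values measure only the spread between these samples.

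The level of each member is given as its own reference for the changes that follow. In YUMM2.1 the median library level was 35.96 CPM for Fosl1, 29.1 for Jun, 15.5 for Fosl2, 11.7 for Junb, 8.26 for Ier2 and 5.64 for Egr1. In CT26 it was 27.5 CPM for both Fosl1 and Junb, 11.6 for Ier2, 7.05 for Egr1, 5.65 for Fosl2 and 4.05 for Jun. Since 3′ counting samples transcript ends, these levels are not compared between genes. Those 6 members passed the filter on low counts in both lines, and Fos, Fosb, Jund and Atf3 passed it in neither. The filter was applied to 45 libraries of a line at once, which left 9589 genes to test for YUMM2.1 and 8516 for CT26.

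Over the 6 tested members and 4 weeks, 5 of 24 comparisons of 2 h with 0 h were called in YUMM2.1 and 1 of 24 in CT26, all of them Junb or Egr1 and all higher at 2 h (edgeR quasi-likelihood test, adjusted p below 0.05 over all tested genes). By week, YUMM2.1 had 0, 2, 1 and 2 members called, against 0.240%, 0.615%, 0.428% and 1.08% of all tested genes. CT26 had 0, 0, 1 and 0, against 0.235%, 0.376%, 0.305% and 0.0117%. The same totals came from DESeq2 (5 and 1), and 11 and 4 comparisons had an unadjusted p below 0.05, among them 1 in naive YUMM2.1 cells (Fosl1, lower at 2 h) and 0 in naive CT26 cells. Of all 9589 genes tested in YUMM2.1, 348, 1064, 562 and 1156 had an unadjusted p below 0.05 in weeks 0 to 3. Of 8516 in CT26, 309, 696, 603 and 622 did. The median log2 change of the 6 members in YUMM2.1 was -0.21, 0.94, 0.47 and 1.09 in weeks 0 to 3, where the median of all tested genes lay between 0 and 0.03. In CT26 it was -0.04, 0.67, 0.50 and 0.58, with medians of all genes between -0.005 and 0.02. The week 3 value in CT26 stands beside a comparison in which 1 gene in all was called.

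**Figure D1:**
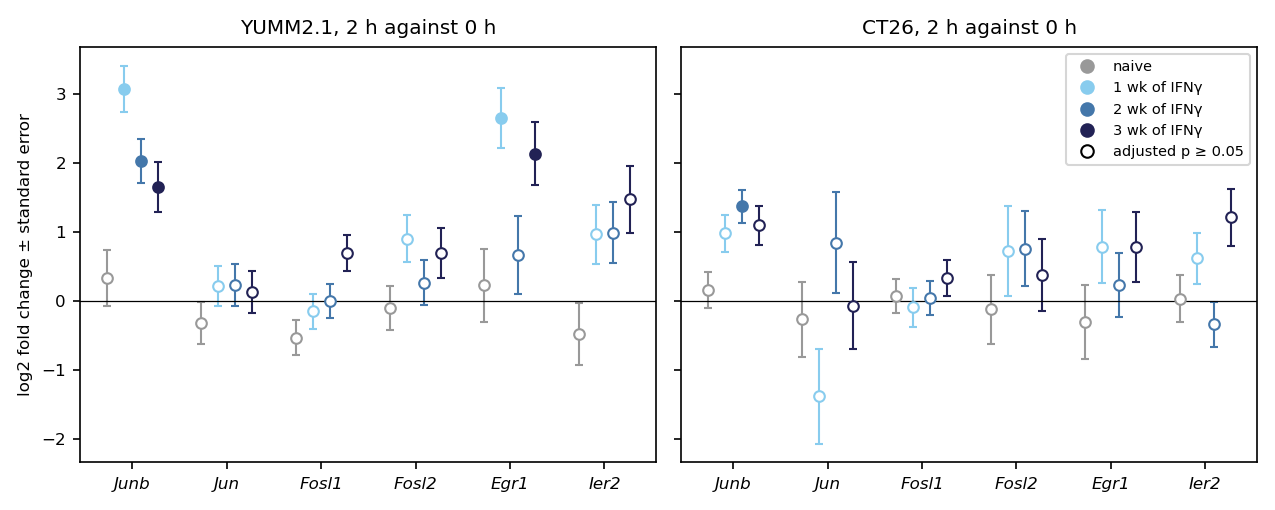
Log2 fold change at 2 h against 0 h (y axis) with its standard error for the 6 tested members (x axis) in YUMM2.1 (left) and CT26 (right). Colours give the weeks of IFNγ before the fresh dose, and filled points passed an adjusted p of 0.05. Junb at 1 to 3 weeks and Egr1 at 1 and 3 weeks are filled in YUMM2.1, and Junb at 2 weeks in CT26.

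For 24 h against 0 h, YUMM2.1 had 0, 2, 0 and 0 members called in weeks 0 to 3 (against 0.886%, 1.42%, 0.615% and 0.00% of all genes). CT26 had 0 of 24 comparisons called by edgeR and by DESeq2 (against 2.04%, 1.32%, 0.658% and 0.00%). There 1 comparison had an unadjusted p below 0.05 (edgeR), against 970, 797, 610 and 442 of 8516 genes in weeks 0 to 3. For 24 h against 2 h, YUMM2.1 had 0, 1, 1 and 2 members called, all lower at 24 h (against 0.563%, 0.709%, 0.0939% and 1.49%), and CT26 had 0, 0, 1 and 0 (against 2.05%, 0.528%, 0.247% and 0.0352%). All calls in these comparisons with 24 h were Junb or Egr1, and these comparisons share the 0 h or the 2 h libraries with those of 2 h with 0 h.

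Junb, a JUN family member, was higher 2 h after fresh IFNγ in cells already kept in IFNγ, in YUMM2.1 at 1, 2 and 3 weeks and in CT26 at 2 weeks. In YUMM2.1 the 9 libraries taken at 2 h in weeks 1 to 3 lay between 30.7 and 101 CPM, and the other 36 lay between 4.59 and 27.2 CPM. In CT26 the same 9 libraries lay between 35.3 and 67.3 CPM, and the other 36 between 10.2 and 33.5 CPM. The 2 h libraries of exposed cells, pooled over weeks 1 to 3, did not overlap any other library of their line, naive 2 h libraries included. The share of all tested genes that separate in this way was not counted, here or for other groups said not to overlap.

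**Figure D2:**
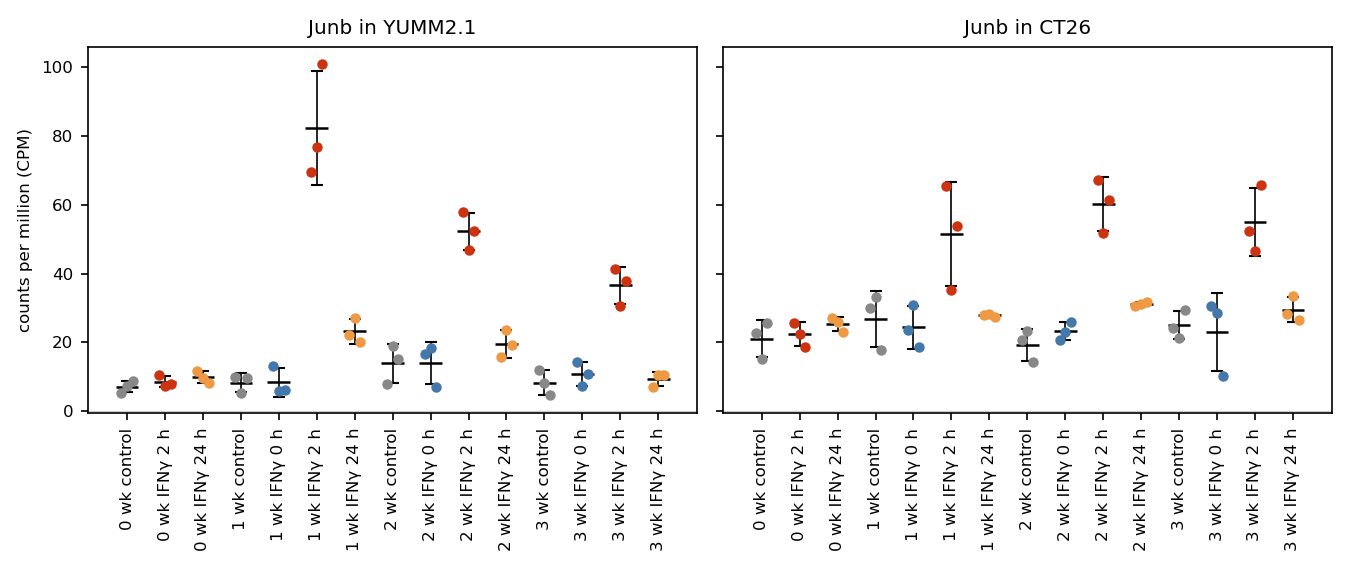
Junb level in CPM (y axis, linear) in each of the 15 groups (x axis) of YUMM2.1 (left) and CT26 (right). Points are libraries (grey control, blue 0 h, red 2 h, orange 24 h), the long bar is the mean and the error bar is the SD (n = 3). The 2 h groups of weeks 1 to 3 stand above all other groups, with means of 82.4, 52.3 and 36.6 CPM in YUMM2.1, whereas the naive 2 h group does not.

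In YUMM2.1 after 1 week, Junb was at 13.2, 5.84 and 6.20 CPM in the 3 libraries at 0 h, at 69.4, 76.7 and 101 CPM at 2 h, and at 22.3, 27.2 and 20.2 CPM at 24 h. Every 2 h value exceeded every 0 h value. The fold change at 2 h was 8.40 (log2 3.07, SE 0.335, edgeR quasi-likelihood test, adjusted p = 6.85e-09), which ranked 5 by size among the 59 genes called in that comparison. After 2 weeks the 0 h libraries were at 16.7, 18.3 and 7.01 CPM and the 2 h libraries at 57.8, 47.0 and 52.3 CPM. Here too the groups did not overlap, with a fold change of 4.08 (log2 2.03, SE 0.314, adjusted p = 3.89e-05). After 3 weeks the 0 h libraries were at 14.2, 7.22 and 10.9 CPM and the 2 h libraries at 41.3, 30.7 and 37.8 CPM. The fold change was 3.14 (log2 1.65, SE 0.362, adjusted p = 0.0071), smaller than at 1 week, although the difference between the weeks was not tested. The call at 3 weeks was lost without replicate 1 (log2 2.00, adjusted p = 0.0945) and without replicate 2 (log2 1.56, adjusted p = 0.131), while those at 1 and 2 weeks were kept whichever replicate number was left out.

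In naive YUMM2.1 cells Junb was at 5.36, 7.39 and 8.68 CPM in the untreated libraries and at 10.6, 7.47 and 7.80 CPM 2 h after IFNγ. The ranges overlapped, and the log2 fold change of 0.34 (SE 0.408) had a 95% interval from -0.48 to 1.15. The 2 h response at 1 week exceeded the naive response by 2.73 on the log2 scale (SE 0.543, edgeR adjusted p = 0.00723), a member call against 0.146% of all genes called in that comparison of responses. That call was lost without replicate 2 (2.39, adjusted p = 0.431) and without replicate 3 (2.18, adjusted p = 0.661). The excess over the naive response was 1.69 at 2 weeks (adjusted p = 0.648) and 1.31 at 3 weeks (adjusted p = 0.704), where 0.125% and 0.115% of all genes were called.

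In CT26 the call was made at 2 weeks. At that time Junb was at 20.8, 23.1 and 25.9 CPM at 0 h and at 67.3, 51.8 and 61.3 CPM at 2 h. The groups did not overlap, and the fold change was 2.59 (log2 1.38, SE 0.238, adjusted p = 0.000506). Without replicate 1 the log2 change was 1.203 and the call was lost (adjusted p = 0.474). After 1 week the 0 h libraries were at 23.6, 30.9 and 18.6 CPM and the 2 h libraries at 65.4, 35.3 and 53.7 CPM, and after 3 weeks they were at 30.5, 28.4 and 10.2 CPM and at 52.4, 46.7 and 65.9 CPM. In both weeks the 3 libraries at 2 h were above the 3 at 0 h, but the log2 changes of 0.98 (SE 0.269, adjusted p = 0.127) and 1.10 (SE 0.277, adjusted p = 0.202) did not pass the threshold over all genes. The value at 1 week passed it without replicate 2 (log2 1.41, adjusted p = 0.0374). The summed epithelial markers (7 genes) of CT26 also differed between these groups, with 60.7 to 70.9 CPM at 0 h and 95.2 to 102.9 CPM at 2 h after 2 weeks, 57.6 to 74.9 and 125.0 to 131.0 CPM after 3 weeks, and overlapping ranges after 1 week and in naive cells. Krt20, a keratin of intestinal epithelium, was the marker called (log2 0.74, adjusted p = 0.00577 at 2 weeks and log2 1.24, adjusted p = 4.69e-05 at 3 weeks), Krt18 was not called, and their part in the Junb values was not tested. Naive CT26 cells went from 22.6, 15.1 and 25.6 CPM untreated to 25.7, 22.6 and 18.8 CPM at 2 h. These ranges overlapped (log2 0.16, SE 0.261, 95% interval -0.36 to 0.68). The excess of the exposed over the naive response in CT26 was 0.82, 1.21 and 0.94 on the log2 scale at 1, 2 and 3 weeks, and none of the 6 tested members was called in these comparisons (edgeR), against 0.106%, 0.0822% and 0.211% of all genes. At an unadjusted p below 0.05, 4 of those 18 member comparisons passed, and DESeq2 called 0. Of all 8516 tested genes, 701, 380 and 463 had an unadjusted p below 0.05 at 1, 2 and 3 weeks (edgeR).

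Between the lines, the Junb response at 2 h after 1 week was smaller in CT26 than in YUMM2.1 by 2.03 on the log2 scale (log2 difference -2.03, SE 0.44, edgeR adjusted p = 0.0398). It was the only member called among 24 member comparisons in 4 weeks, against 0.00%, 0.0484%, 0.00% and 0.193% of the 10339 genes of the joint fit called at weeks 0, 1, 2 and 3. Leaving out any replicate number ended the call (-3.02 to -1.39, adjusted p from 0.108 to 1).

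In YUMM2.1 Junb was lower at 24 h than at 2 h in each week of exposure. The log2 change from 2 h to 24 h was -1.73 (SE 0.297, adjusted p = 0.000214) at 1 week, -1.46 (SE 0.311, adjusted p = 0.0288) at 2 weeks and -1.89 (SE 0.337, adjusted p = 0.000325) at 3 weeks. At 1 week it was still above its 0 h level, by 1.34 on the log2 scale (SE 0.364, adjusted p = 0.0466). That value of 24 h against 0 h ranged from 0.85 to 1.93 when a replicate number was left out, and its call was lost each time (adjusted p from 0.0559 to 0.586). In CT26 the change from 2 h to 24 h passed the threshold at 2 weeks (log2 -0.98, SE 0.225, adjusted p = 0.0391) and had values of -0.91 (adjusted p = 0.0932) at 1 week and -0.87 (adjusted p = 0.331) at 3 weeks. The 2 week calls of both lines were lost whichever replicate number was left out (-1.69 to -1.25 in YUMM2.1 and -1.12 to -0.84 in CT26), and that of YUMM2.1 at 3 weeks was lost without replicate 1 (-1.64, adjusted p = 0.0524).

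The 24 h libraries of the third week stood apart from those of earlier weeks, in genes beyond the members. In YUMM2.1 at 3 weeks Gbp2, an interferon-induced GTPase, was at 122.9 ± 7.05 CPM at 0 h, 522.4 ± 13.4 CPM at 2 h and 110.4 ± 2.44 CPM at 24 h, and Irf1 at 34.1 ± 5.21, 231 ± 22.5 and 36.2 ± 1.72 CPM. From 2 h to 24 h Gbp2 changed by 2.15, 2.02, 0.62 and -2.19 on the log2 scale in weeks 0 to 3, all of them called (edgeR), so it was lower at 24 h in the last week and higher in the others. For 24 h against 0 h at 3 weeks, 0 of all genes were called in YUMM2.1 (DESeq2 called 1, and 349 had an unadjusted p below 0.05) and 0 in CT26 (DESeq2 called 0, and 442 had an unadjusted p below 0.05). In CT26 at 3 weeks Gbp2 was at 277.4 ± 33.8, 364.8 ± 21.9 and 281.1 ± 27.9 CPM at 0, 2 and 24 h. The falls of Junb and Egr1 from 2 h to 24 h at 3 weeks in YUMM2.1 thus stand in libraries where IFNγ response genes were also at their 0 h level, and the part of this in the member values was not tested.

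Ordered by mean, the Junb groups of YUMM2.1 began with 2 h at 1 week (82.4 ± 16.5 CPM, SD, n = 3), 2 h at 2 weeks (52.3 ± 5.41), 2 h at 3 weeks (36.6 ± 5.39) and 24 h at 1 week (23.2 ± 3.58). Neighbours among those 4 groups did not overlap. From 24 h at 1 week down to the untreated week 0 control (7.14 ± 1.68) each neighbour overlapped the next. In CT26 the 2 h groups at 2 weeks (60.1 ± 7.84), 3 weeks (55.0 ± 9.84) and 1 week (51.5 ± 15.2) overlapped one another, and the lowest of them did not overlap the next group (24 h at 2 weeks, 31.2 ± 0.684). The annotated 3′ end of Junb overlaps that of Prdx2, a peroxiredoxin gene on the opposite strand. Whether the counting used strand is not given in the sources used here, and Prdx2 itself had log2 changes between -0.13 and 0.08 in the 8 comparisons of 2 h with 0 h, with 0 called by edgeR or DESeq2 and 0 at an unadjusted p below 0.05. Its median library level was 761.5 CPM in the melanoma line and 317 CPM in the carcinoma line, and it was called lower under continuous IFNγ against control in CT26 at 3 weeks (log2 -0.51, SE 0.127, edgeR adjusted p = 0.00683).

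Egr1 (ENSMUSG00000038418.7, chr18:34859823-34864984, plus strand), the EGR family member, was higher at 2 h in YUMM2.1 after 1 and 3 weeks of IFNγ, and its change after 2 weeks did not pass the test. After 1 week it was at 10.2, 3.72 and 8.26 CPM at 0 h and at 36.2, 84.0 and 24.6 CPM at 2 h. Those groups did not overlap (fold change 6.29, log2 2.65, SE 0.436, adjusted p = 9.88e-05). After 3 weeks it was at 12.4, 4.13 and 3.64 CPM at 0 h and at 30.4, 64.5 and 22.1 CPM at 2 h. The fold change was 4.40 (log2 2.14, SE 0.46, adjusted p = 0.00572). Replicate 2 was the highest 2 h library in both weeks, and without replicate 2 both calls were lost (log2 1.66, adjusted p = 0.29 at 1 week and log2 1.34, adjusted p = 0.437 at 3 weeks). After 2 weeks Egr1 was at 4.49, 2.74 and 4.67 CPM at 0 h and at 5.17, 6.71 and 7.97 CPM at 2 h, where the 2 h values were again all above the 0 h values but the log2 change of 0.66 (SE 0.562, adjusted p = 1) did not pass. Naive cells were at 6.43, 4.92 and 4.96 CPM untreated and at 6.33, 9.71 and 3.55 CPM at 2 h, which overlapped (log2 0.23, SE 0.528).

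**Figure D3:**
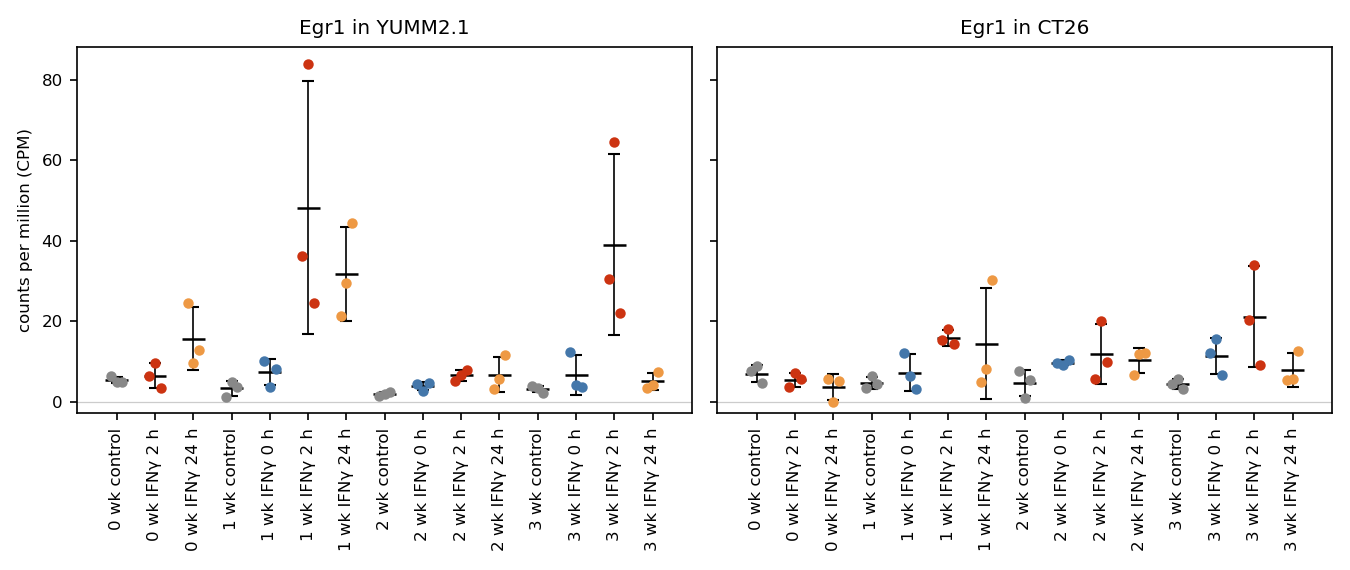
Egr1 level in CPM (y axis, linear) in the 15 groups (x axis) of YUMM2.1 (left) and CT26 (right), colours as in the plot of Junb (grey control, blue 0 h, red 2 h, orange 24 h, points are libraries, bars are mean and SD, n = 3). In YUMM2.1 the 2 h groups at 1 and 3 weeks have the highest means (48.2 and 39.0 CPM) and wide SDs, and the 2 h group at 2 weeks has a low mean.

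The 24 h values of Egr1 in YUMM2.1 are given by week, and its course was not tested against that of Junb. Naive cells were at 9.78 to 24.5 CPM at 24 h and at 4.92 to 6.43 CPM untreated, without overlap. The log2 changes of 1.40 from 0 h (SE 0.491, edgeR adjusted p = 0.353) and 1.17 from 2 h (adjusted p = 0.802) did not pass. After 2 weeks Egr1 was at 3.14 to 11.6 CPM at 24 h, with log2 changes of 0.95 from 0 h and 0.29 from 2 h, neither of them called. At 1 week it was at 21.3, 29.4 and 44.5 CPM at 24 h, above all 0 h libraries by 2.11 on the log2 scale (SE 0.448, adjusted p = 0.00317), and its change from 2 h was -0.55 (adjusted p = 0.687). That 24 h call was lost without replicate 2 (1.72, adjusted p = 0.122) and without replicate 3 (1.89, adjusted p = 0.0764). At 3 weeks it was at 3.51, 4.31 and 7.42 CPM at 24 h, a log2 change from 2 h of -2.79 (SE 0.449, adjusted p = 5.2e-05), in the same libraries in which Gbp2 and Irf1 were back near their 0 h levels. The group order began with 2 h at 1 week (48.2 ± 31.5 CPM), 2 h at 3 weeks (39.0 ± 22.4), 24 h at 1 week (31.7 ± 11.8) and 24 h in naive cells (15.7 ± 7.76), and every neighbour in the order of 15 groups overlapped the next. The response at 1 week exceeded the naive response by 2.42 on the log2 scale, which did not pass the threshold (SE 0.699, adjusted p = 0.424).

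In CT26 no Egr1 value at 2 h passed the test. The log2 changes from 0 h were -0.30, 0.79, 0.24 and 0.78 in weeks 0 to 3, and the smallest adjusted p was 0.725. After 1 week the libraries were at 12.2, 6.44 and 3.10 CPM at 0 h and at 15.5, 18.2 and 14.3 CPM at 2 h, without overlap, and the 95% interval of the log2 change ran from -0.26 to 1.84. After 3 weeks they were at 12.0, 15.5 and 6.78 CPM at 0 h and at 20.3, 34.1 and 9.04 CPM at 2 h, with overlap. All neighbours in the order of the 15 CT26 groups overlapped, from 21.1 ± 12.5 CPM (2 h at 3 weeks) to 3.67 ± 3.19 CPM (24 h in naive cells). The difference in the Egr1 response between the lines did not pass in any week (smallest adjusted p 0.826).

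Continuous IFNγ by itself, compared with BSA cultures of the same week at 0 h, gave no called member. In each line 0 of 18 member comparisons passed in edgeR and 0 in DESeq2 (against 0.730%, 1.12% and 0.970% of all genes in YUMM2.1 and 0.728%, 1.62% and 7.28% in CT26 at 1, 2 and 3 weeks). An unadjusted p below 0.05 (edgeR) was found for 1 comparison in each line. Among all genes, 568, 689 and 1010 had one in YUMM2.1 and 624, 866 and 1889 in CT26. Egr1 at 3 weeks was that 1 comparison in both lines. Its log2 difference lay between 0.76 and 1.29 in the 6 comparisons, with the smallest adjusted p at 0.178 in CT26 and 0.375 in YUMM2.1. Junb differences lay between -0.16 and 0.38. Over all 12 control libraries Junb lay between 4.59 and 19.1 CPM in YUMM2.1, and the CT26 controls between 14.2 and 33.1 CPM.

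The other JUN family member that could be tested, Jun, was not called at 2 h in either line. In YUMM2.1 it was at 39.2 ± 20.04 CPM at 0 h and 41.8 ± 16.9 CPM at 2 h after 1 week, and its log2 changes at 2 h lay between -0.32 and 0.23 in the 4 weeks (smallest adjusted p 0.833). In CT26 it had 258 counts over the 45 libraries, and its log2 changes ran from -1.38 to 0.85 (smallest adjusted p 0.604). Jun has an antisense neighbour, Junos, whose median was 0.809 CPM in YUMM2.1 libraries and 0.458 CPM in those of CT26. Jund, usually an abundant and steadily expressed JUN protein, had 67 counts over YUMM2.1 and 31 over CT26, and did not pass the filter.

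Among the FOS family, Fosl1 had the most counts (2497 in YUMM2.1 and 1631 in CT26), and its highest group in each line was 2 h at 3 weeks. In YUMM2.1 after 3 weeks it was at 39.6, 33.0 and 25.5 CPM at 0 h and at 46.3, 76.0 and 56.3 CPM at 2 h. The groups did not overlap, but the log2 change of 0.70 did not pass over all genes (adjusted p = 0.236). Naive YUMM2.1 cells had a log2 change of -0.53 at 2 h. In CT26 after 3 weeks its mean was 36.6 ± 17.2 CPM at 0 h and 51.0 ± 12.7 CPM at 2 h, with overlap, and its log2 changes lay between -0.09 and 0.33 in the 4 weeks. Fosl2 was at 11.6 ± 2.17 CPM at 0 h and 22.2 ± 5.84 CPM at 2 h in YUMM2.1 after 1 week, and its log2 changes lay between -0.10 and 0.91 over the weeks (smallest adjusted p 0.314). In CT26 they lay between -0.12 and 0.76, on 344 counts in all.

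Ier2 had 2 h values above 0 h in part of the series. Its log2 changes lay between -0.47 and 1.47 in YUMM2.1 and between -0.34 and 1.21 in CT26, with 0 called. The lowest were those of naive YUMM2.1 cells and of CT26 after 2 weeks. In YUMM2.1 after 1 week it was at 6.62, 7.44 and 8.26 CPM at 0 h and at 15.4, 18.5 and 10.3 CPM at 2 h. The ranges did not overlap, and the log2 change of 0.97 (SE 0.432, adjusted p = 0.409) did not pass. After 2 weeks Ier2 was at 4.20 to 8.34 CPM at 0 h and at 8.86 to 14.2 CPM at 2 h, also without overlap. That log2 change of 0.99 (SE 0.443, edgeR adjusted p = 0.749) did not pass. After 3 weeks the 2 h libraries were at 15.9, 19.2 and 17.8 CPM, and the 0 h libraries at 1.24, 7.22 and 21.8 CPM. The highest 0 h value came from the library with 274719 counts in all, and the log2 change of 1.47 (SE 0.491, adjusted p = 0.166) became 2.18 (adjusted p = 0.0178) when the shallow libraries were left out and 2.13 (adjusted p = 0.0456) without replicate 3. In CT26 after 3 weeks it was at 11.1, 6.46 and 3.39 CPM at 0 h and at 16.9, 17.7 and 21.9 CPM at 2 h, a log2 change of 1.21 (SE 0.411) that did not pass (adjusted p = 0.458). The highest Ier2 group was 2 h at 3 weeks in both lines, at 17.6 ± 1.63 and 18.8 ± 2.72 CPM.

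The 4 remaining members were low in counts and are given as counts, with no test. Fos, the partner of JUN proteins, was detected in all 9 libraries taken at 2 h in weeks 1 to 3 in YUMM2.1, at 2.59 to 7.97 CPM from 62 counts. It was detected in 24 of the other 36 libraries, at 0 to 5.66 CPM from 73 counts. At 1 week the 2 h libraries were at 4.82, 4.63 and 6.47 CPM, at 2 weeks at 2.59, 4.47 and 7.97 CPM and at 3 weeks at 5.07, 7.67 and 2.85 CPM. The 0 h libraries at 3 weeks had 0 counts of Fos in all 3, against 21 counts in the 3 libraries at 2 h. Naive cells had 5 counts untreated and 13 counts at 2 h. In CT26 Fos had 25 counts in all, and it was detected in 4 of the 9 libraries and in 11 of the other 36.

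Fosb, a FOS family member that is often induced together with Fos, was the clearer of the pair in CT26. It was detected in 7 of the 9 libraries taken at 2 h in weeks 1 to 3 (33 counts) and in 14 of the other 36 (24 counts). At 1 week it was at 0, 0 and 0 CPM at 0 h and at 4.22, 8.07 and 3.36 CPM at 2 h. The group totals were 0 and 18 counts, and the 2 h libraries at 2 and 3 weeks included libraries at 0. In YUMM2.1 Fosb had 34 counts, 15 of them in the 9 libraries.

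Atf3, the repressing zipper factor, was detected in YUMM2.1 only. It had 80 counts there, in 31 of 45 libraries, and all 9 libraries taken at 2 h in weeks 1 to 3 held it, at 0.482 to 5.18 CPM from 30 counts. The other 36 libraries lay between 0 and 2.15 CPM, with 22 detected. In CT26 it had 0 counts among 56549425 over 45 libraries, which allows a level of up to 0.0531 CPM over the line, counting error only. A level below 1.36 to 10.2 CPM, depending on depth, would give fewer than 3 counts in a single CT26 library.

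**Figure D4:**
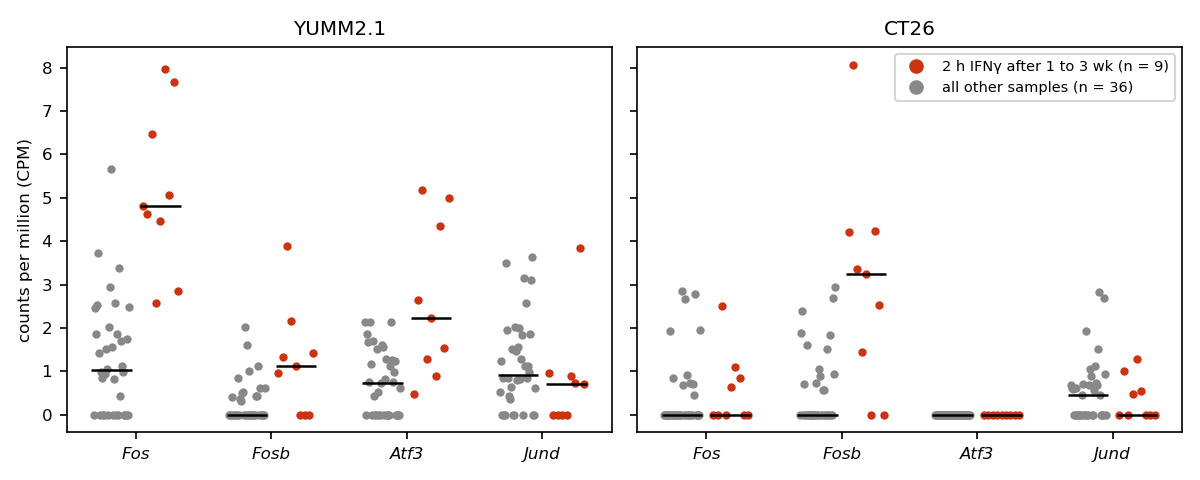
Levels in CPM (y axis, linear) of the 4 members that did not pass the filter (x axis) in YUMM2.1 (left) and CT26 (right), one point per library. Red points are the 9 libraries taken at 2 h after 1 to 3 weeks of IFNγ, grey points are the other 36, and the bar is the median. The highest value is a red point for Fos, Fosb, Atf3 and Jund in YUMM2.1 (Jund by 3.84 against 3.64 CPM, with a lower median in the red points) and for Fosb in CT26, a grey point for Fos and Jund in CT26, and Atf3 in CT26 is at 0 in all 45.

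The pathway around these factors was described with lists of genes taken by role, and the rest of the immediate-early class was the group nearest to the members. The lists too were chosen with earlier results of these data known, and the study's chronic IFNγ signature includes Hbegf, Errfi1 and Batf2. Of 36 other genes of this class, 24 passed the count filter in YUMM2.1 and 20 passed it in CT26. In naive cells 0 of them were called at 2 h in either line (edgeR), the unadjusted p was below 0.05 for 2 of the YUMM2.1 genes and 1 of the CT26 genes, and DESeq2 called 0. In YUMM2.1, 4, 2 and 5 were called higher at 1, 2 and 3 weeks and 1 lower at 3 weeks, with list medians of 0.80, 0.36 and 0.74 on the log2 scale. In CT26, 1, 2 and 0 were called higher. At 1 week in YUMM2.1 they were Egr2 (log2 1.87), a relative of Egr1, Ccn1 (1.57), a matricellular protein, Errfi1 (1.46), a feedback inhibitor of the EGF receptor, and Hbegf (0.79), a ligand of that receptor. At 2 weeks they were Ccn1 (1.06) and Klf10 (0.55). At 3 weeks the 5 with the largest changes were Nr4a1 (-1.39), Errfi1 (1.33), Ccn1 (1.25), Hbegf (1.02) and Myc (0.87). In CT26 Errfi1 was called at 1 week (1.27) and 2 weeks (1.49), and Ptgs2, the inducible cyclooxygenase, at 2 weeks (0.97). From 2 h to 24 h, 0, 2, 2 and 6 of these genes were lower in weeks 0 to 3 in YUMM2.1, and 0, 1, 0 and 1 in CT26.

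The levels behind these calls are shown for a relative of Egr1 and for the gene called in both lines. Egr2 in YUMM2.1 was at 10.8 ± 8.77 CPM in untreated naive cells and 7.72 ± 2.37 CPM at 2 h, and after 1 week it was at 8.85 ± 3.07 CPM at 0 h and 37.5 ± 2.81 CPM at 2 h. Errfi1 in CT26 after 2 weeks was at 22.8 ± 7.74 CPM at 0 h and 67.4 ± 27.6 CPM at 2 h, and in naive cells at 40.7 ± 9.15 and 34.4 ± 3.57 CPM.

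Early IFNγ response genes were also called in naive cells. Of 7 listed, 6 were tested in each line, and 4, 4, 3 and 4 were called higher at 2 h in weeks 0 to 3 in YUMM2.1 and 4, 3, 4 and 0 in CT26. Irf1, an interferon-induced transcription factor, had a log2 change at 2 h of 4.07 in naive YUMM2.1 cells and 2.74 after 1 week, and of 3.46 and 1.79 in CT26. Its response at 1 week was below the naive response by 1.33 on the log2 scale in YUMM2.1 (log2 difference -1.33, adjusted p = 0.0284) and by 1.68 in CT26 (-1.68, adjusted p = 0.0106). Junb over the same comparisons had 0.34 and 3.07, and 0.16 and 0.98. The medians of the tested list genes in YUMM2.1 were 3.02 in naive cells and 1.60 after 1 week, against -0.21 and 0.94 for the members.

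**Figure D5:**
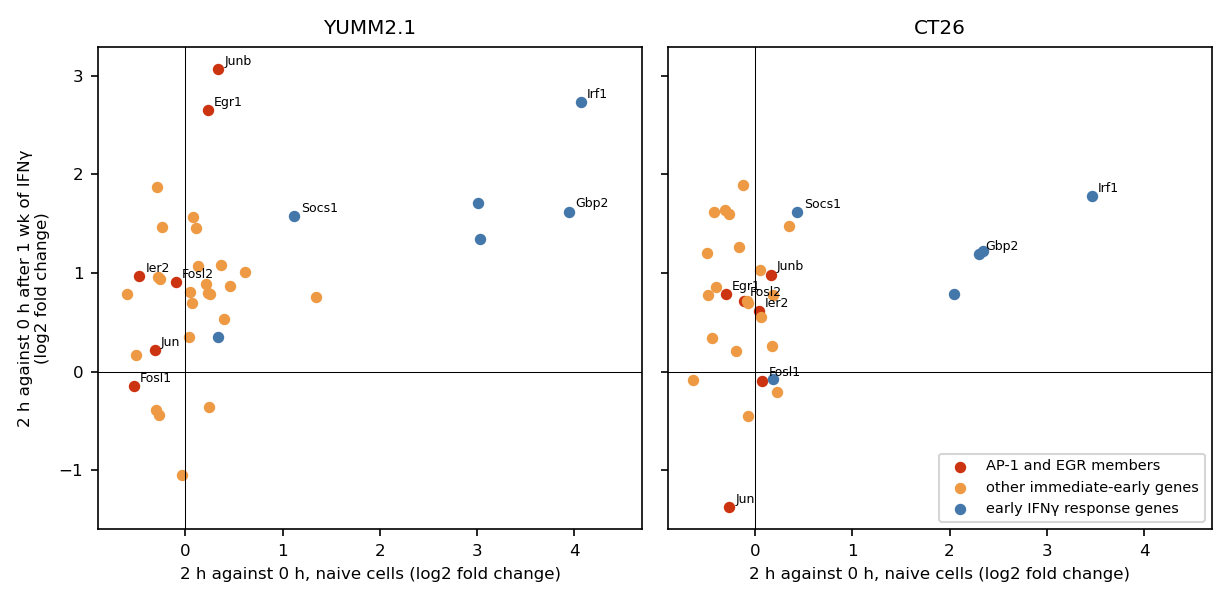
Log2 fold change at 2 h against 0 h in naive cells (x axis) and after 1 week of IFNγ (y axis), in YUMM2.1 (left) and CT26 (right), for tested members (red), other immediate-early genes (orange) and early IFNγ response genes (blue). Each point is a gene. Junb and Egr1 lie near 0 on the x axis and high on the y axis in YUMM2.1 (0.34 and 3.07 for Junb), and Irf1 lies far to the right in both lines.

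Of the other lists, the upstream kinases and SRF cofactors had 0 called at 2 h in any week (edgeR; 17 of 19 passed the filter in YUMM2.1, and 14 did in CT26). Over the 4 weeks the unadjusted p was below 0.05 in 1 comparison for YUMM2.1 and in 8 for CT26, and DESeq2 called 0 and 1. Feedback inhibitors of these pathways (11 of 14 tested in YUMM2.1) had 2 called, both at 3 weeks in YUMM2.1. They were Nab2 (log2 1.88), which represses EGR proteins, and Dusp6 (0.83), an ERK phosphatase. In CT26 0 of 6 were called in any week (edgeR), as with DESeq2, and 5 of 24 comparisons had an unadjusted p below 0.05. Basic leucine zipper partners of AP-1 had 0, 0, 1 and 2 of 13 called in YUMM2.1 and 0, 1, 1 and 0 of 12 in CT26. These were Crem in YUMM2.1, a cyclic AMP responsive factor, at 6.27 ± 1.58 CPM at 0 h and 19.98 ± 4.78 CPM at 2 h after 2 weeks, and Batf2, an interferon-inducible partner, with 2 counts at 0 h and 50 at 2 h in YUMM2.1 after 3 weeks and 4 and 65 counts in CT26 after 2 weeks.

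Known AP-1 target genes had 0, 0, 1 and 1 of 10 called higher at 2 h in YUMM2.1 and 0 of 9 in CT26 in every week (edgeR; DESeq2 also called 0 in YUMM2.1 at weeks 0 and 1, with 0 at an unadjusted p below 0.05, and 0 in CT26, where 6 of 36 comparisons had an unadjusted p below 0.05). Both calls were Plaur, the urokinase receptor, which was at 132.7 ± 15.03 CPM at 0 h and 235.5 ± 20.9 CPM at 2 h after 2 weeks, and at 99.0 ± 6.99 and 215.5 ± 21.5 CPM after 3 weeks. In CT26 after 3 weeks Plaur was at 138.1 ± 71.4 and 227.5 ± 36.1 CPM, where it did not pass.

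The likeness of group patterns was described over the 15 group means of a line (Pearson r of mean log2 CPM against all other tested genes, with no test, since the groups share a scale and the library depths). In YUMM2.1 the pattern nearest to Junb was that of Skil (r = 0.972), a negative regulator of SMAD signalling, and that of Lif (0.927), a cytokine, was also among the 3 nearest. Skil and Lif, like Junb, belong to the study's chronic IFNγ signature from the same time courses, so this likeness is not independent of it. Fosl1 was nearest to Ppp1r12b (0.802), Rnf169 (0.781) and Mapkapk5 (0.776), and Jun to Vcl (0.825), C2cd5 (0.818) and Fgfr1 (0.818). In CT26 Junb was nearest to Dusp6 (0.907) and Tnfrsf1b (0.887), Fosl1 to Ube2z (0.848), Abhd2 (0.837) and Cbl (0.833), and Egr1 to Foxf1 (0.920), Fam129b (0.897) and Srsf2 (0.892). Between members, Egr1 and Junb had r = 0.654 in YUMM2.1 and 0.606 in CT26. In these cultures a change in the share of responding cells and a change in RNA per cell cannot be told apart.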

How the data were processed

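RNA of 90 libraries was measured by 3′ digital gene expression with paired 60 base reads. The authors deposited a table of raw counts per Ensembl gene. The submitters' processing notes name Salmon 0.13.1 and mm10, and the methods name tximport. Use of molecular identifiers and strand is not given in the sources used here. Symbols were taken from the GENCODE M21 annotation for 53668 of 53697 identifiers. Groups came from the sample titles. Counts were filtered with filterByExpr, scaled by TMM and tested with edgeR 4.0.16 (quasi-likelihood, R 4.3.3) over all 15 groups of a line, with Benjamini-Hochberg adjustment over all tested genes and a threshold of 0.05. Both lines entered a joint fit for the difference between lines. Reported intervals are 95% and SDs are over 3 libraries. The alternatives were DESeq2 1.42.0, library totals, no filter, only the groups compared, a replicate block, omission of 1 replicate number at a time and omission of the shallow libraries. The fit was tested on simulated counts. The study discarded 5 libraries that it does not name, and all 90 were kept here. The members and gene lists were chosen with earlier results of these data known. All members are named. From each other list at most 5 called genes per line and week, those with the largest change, are named, and likeness is given for the 3 members with the highest 2 h level. Some genes are not reported here and were left out of the lists and of the genes named by likeness.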

Additional observations from a re-analysis of the deposited data

Results flagged for a closer look

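Responses at 2 h that differed between groups by a test of the difference itself (edgeR, adjusted p over all genes) are given for the members and for the other gene lists. Junb in YUMM2.1 responded more after 1 week than in naive cells, by 2.73 on the log2 scale (adjusted p = 0.00723), and this call was lost without replicate 2 or 3 (2.39, adjusted p = 0.431, and 2.18, adjusted p = 0.661). Junb responded less in CT26 than in YUMM2.1 at 1 week (-2.03, adjusted p = 0.0398), a call lost whichever replicate number was left out.

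In YUMM2.1, 3 genes of the other lists also responded more in exposed than in naive cells. Of all tested genes, 0.146%, 0.125% and 0.115% were called in either direction at 1, 2 and 3 weeks. Leaving out a replicate number was examined for members and not for the genes of the other lists, here and below. Hbegf differed by 1.39 at 1 week (adjusted p = 0.00101), 1.24 at 2 weeks (adjusted p = 0.00545) and 1.62 at 3 weeks (adjusted p = 0.000111). Its mean went from 62.7 to 40.9 CPM at 2 h in naive cells and from 64.2 to 135.6 CPM after 3 weeks. The naive mean was thus lower at 2 h, a change that was not called (log2 -0.60, SE 0.178, edgeR adjusted p = 0.38). Ccn1 differed by 1.49 at 1 week (adjusted p = 0.00439), with 30.5 and 32.5 CPM in naive cells and 21.5 and 66.5 CPM after 1 week. Plaur differed by 1.17 at 3 weeks (adjusted p = 0.0102), with 72.0 and 65.5 CPM in naive cells and 99.0 and 215.5 CPM after 3 weeks.

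Early IFNγ response genes differed in the other direction, with smaller responses in exposed than in naive cells, on the log2 scale. In YUMM2.1 Irf1 differed by -1.33 at 1 week and -2.17 at 2 weeks, Irgm1 by -1.30, -1.80 and -1.503 at 1, 2 and 3 weeks, Gbp2 by -2.32, -2.76 and -1.92, and Gbp3 by -2.55 at 2 weeks (adjusted p from 2.51e-09 to 0.0284). In CT26 Irf1 differed by -1.68, -1.69 and -3.00 and Irgm1 by -1.12, -1.14 and -1.99 at 1, 2 and 3 weeks, and Gbp2 by -1.88 and Gbp3 by -1.92 at 3 weeks (adjusted p from 8.46e-12 to 0.0106). Between the lines at 3 weeks, the response in CT26 was below that in YUMM2.1 for Irf1 (-2.30, adjusted p = 6.41e-09), Gbp2 (-1.57, adjusted p = 6.03e-07) and Irgm1 (-1.14, adjusted p = 4.22e-05).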

How the results depend on the processing

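Most counts of called members were 0 and stayed 0 under every alternative. Of the counts above 0, that for 2 h against 0 h in YUMM2.1 at week 2 stayed within 1.5 times the reported count throughout. So did that for 24 h against 2 h in YUMM2.1 at week 1. Each other count above 0 left that range under at least 1 alternative. Fitting only the groups compared gave 0 called members in place of 2 for 2 h against 0 h in YUMM2.1 at week 3 (Junb 1.67, adjusted p = 0.0625, and Egr1 2.17, adjusted p = 0.0578), 1 in place of 2 for 24 h against 0 h at week 1, and 0 in place of 1 for the difference between lines at week 1. For 2 h against 0 h in CT26, library totals as scaling gave 1 in place of 0 at week 1 (Junb, 1.05, adjusted p = 0.0378), and no filter gave 1 in place of 0 at week 3 (Junb, 1.11, adjusted p = 0.0425). For 24 h against 2 h in CT26 at week 1, DESeq2 and leaving out shallow libraries each gave 1 in place of 0 (Junb). Without a filter Fos was called at week 3 in YUMM2.1, with 0 counts at 0 h, so no fold is given. The causes were not tested.

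Leaving out each replicate number in turn gave 1 to 2 called members for 2 h against 0 h in YUMM2.1 at week 1 and 0 to 3 at week 3, and 0 to 1 in CT26 at both week 1 and week 2. It gave 0 to 1 for 24 h against 0 h in YUMM2.1 at week 1. For 24 h against 2 h it gave 0 in YUMM2.1 at week 2, 1 to 2 at week 3, and 0 in CT26 at week 2. It gave 0 to 1 for the exposed against the naive response in YUMM2.1 at week 1 and 0 for the difference between lines at week 1. These fits hold fewer samples.

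Uncalled log2 values of Junb and Egr1 near 0 changed sign. Among other settings Junb did so in CT26, for 24 h against 0 h at week 1 without shallow libraries (-0.010) and for continuous IFNγ at week 3 with library totals (0.044) or without shallow libraries (0.015). When a replicate number was left out, Egr1 ranged from -0.12 to 0.41 (2 h against 0 h, YUMM2.1, week 0), -0.32 to 0.57 (CT26, week 2), -1.12 to 0.54 (24 h against 0 h, YUMM2.1, week 3), -0.56 to 1.65 (CT26, week 1), -0.12 to 0.29 (CT26, week 2), -1.07 to 0.065 (24 h against 2 h, YUMM2.1, week 1), -0.35 to 0.43 (week 2), -0.98 to 0.14 (CT26, week 0), -1.23 to 0.18 (week 1), -0.39 to 0.20 (week 2) and -0.065 to 1.16 (continuous IFNγ, CT26, week 1). Junb ranged from -0.11 to 0.64 (2 h against 0 h, YUMM2.1, week 0), -0.039 to 0.44 (CT26, week 0), -0.61 to 0.35 (24 h against 0 h, YUMM2.1, week 3), -0.037 to 0.23 (CT26, week 1), -0.14 to 0.20 (24 h against 2 h, YUMM2.1, week 0), -0.39 to 0.29 and -0.55 to 0.39 (continuous IFNγ, YUMM2.1, weeks 1 and 2), -0.31 to 0.03, -0.039 to 0.34 and -0.42 to 0.16 (CT26, weeks 1 to 3) and -0.48 to 0.23 (difference between lines, week 0).

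The labels give no shared source for a replicate number, and the correlations did not meet the rule for pairing (58 of 315 same-numbered pairs in YUMM2.1 and 73 of 315 in CT26 were over 0.1). The mean correlation of deviations between libraries with the same number was 0.003 in YUMM2.1 (20 of 45 libraries correlated best with their own number) and 0.015 in CT26 (23 of 45), where 1 in 3 would do so if numbers meant nothing, which leaves a weak hint of shared numbers in the data. With the replicate block, the number of called members was 2 at week 1 and 2 at week 3 for 2 h against 0 h in YUMM2.1 and 1 at week 2 in CT26, and no count of called members moved. The low depth limits Fos, Fosb, Jund and Atf3, and 3 replicates limit the precision of every value.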
